A study of Rattus norvegicus with 138 samples.

Results

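The 10 genes described here are secreted Wnt antagonists (Sfrp1, Sfrp2, Sfrp4, Dkk2 and Dkk3), Wnt receptors and coreceptors (Fzd1, Fzd2, Lrp5 and Lrp6) and Axin2, a target and negative regulator of the pathway. They were taken by symbol from the table of 16181 gene symbols, which held all 10. Each was followed through control, contralateral and injured muscle by day, repair and running.

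Bulk RNA-Seq had been performed on the tibialis anterior (TA) muscle of inbred male Lewis rats, about 4 months old, after a unilateral volumetric muscle loss (VML) injury, in which a 6 mm biopsy punch removed a full-thickness plug from the muscle belly. Injured and contralateral muscles were collected at 3, 7, 14 and 28 days post injury (DPI) in 4 arms of rats, which were resting and non-repaired, resting with a minced muscle graft (MMG), running and non-repaired, or running with a graft. An MMG is an autologous transplant of small muscle fragments into the defect. Control values came from the left and right TA of 2 rats, labelled sham at day 0 and called unoperated by the study, with rat numbers from another numbered series than the operated animals, so that series and operation cannot be told apart. After libraries with fewer than 7000 symbols above 1 TPM (a transcript's share of the library, scaled to a fixed total) were dropped, 114 muscles in 31 groups remained, with 2 to 8 muscles per group. No pooling of animals is stated, and the running labels carry no account of the exercise.

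Wnt ligands are secreted glycoproteins that bind Frizzled receptors together with the coreceptors Lrp5 and Lrp6, which stabilises β-catenin so that it acts with TCF/LEF factors on target genes. Secreted frizzled-related proteins carry a Frizzled-like cysteine-rich domain and bind Wnt ligands outside the cell, and Dickkopf proteins such as Dkk2 bind the coreceptors. In skeletal muscle the pathway is known to act on satellite cells, the muscle stem cells, and on fibrogenic cells of the interstitium.

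Sequence 5′ of the start site was at hand for 3 of the 10 genes. The 300-base windows (250 bases before and 50 bases from the annotated start, RefSeq, rat build GRCr8, all on the plus strand) are shown for Sfrp2 and Fzd1, which rose together after injury, and for Axin2, which did not follow them. Capitals mark CTTTG, the core of the sequence that TCF/LEF factors recognise, searched on both strands (CAAAG on the other).
Sfrp2, chr2:171387286-171387585: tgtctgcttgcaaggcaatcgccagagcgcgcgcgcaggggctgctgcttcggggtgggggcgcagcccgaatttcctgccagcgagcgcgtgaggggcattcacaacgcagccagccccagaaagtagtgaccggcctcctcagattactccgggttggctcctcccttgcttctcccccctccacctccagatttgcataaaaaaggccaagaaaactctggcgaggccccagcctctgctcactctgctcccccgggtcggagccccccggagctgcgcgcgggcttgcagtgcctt
Fzd1, chr4:30264824-30265123: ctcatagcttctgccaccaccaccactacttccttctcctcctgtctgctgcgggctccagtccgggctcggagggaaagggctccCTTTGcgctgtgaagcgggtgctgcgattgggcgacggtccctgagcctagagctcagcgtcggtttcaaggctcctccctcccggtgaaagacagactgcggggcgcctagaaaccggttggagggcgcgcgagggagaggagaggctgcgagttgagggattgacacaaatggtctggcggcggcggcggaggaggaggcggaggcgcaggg
Axin2, chr10:94398535-94398834: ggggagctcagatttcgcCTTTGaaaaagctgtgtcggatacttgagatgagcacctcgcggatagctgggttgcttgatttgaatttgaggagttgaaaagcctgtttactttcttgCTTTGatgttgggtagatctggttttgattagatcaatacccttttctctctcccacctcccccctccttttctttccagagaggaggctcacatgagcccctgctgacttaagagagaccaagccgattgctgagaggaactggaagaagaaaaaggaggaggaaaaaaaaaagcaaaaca
The Axin2 window held CTTTG at positions -232 and -132 from the start, the Fzd1 window held it at -164, and the Sfrp2 window held no copy. The longer CTTTGAT, which contains CTTTG, was found only in the Axin2 window among these 3, at -132. CTTTG occurred in 53.8% and CTTTGAT in 3.63% of all 33469 promoter windows of that length. The windows of Fzd1 and Sfrp2 held 24 and 21 CG dinucleotides, and that of Axin2 held 5.

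In resting, non-repaired rats, 6 of the 10 genes (Sfrp1, Sfrp2, Sfrp4, Dkk3, Fzd1 and Fzd2) rose after VML and stayed higher than both control and contralateral muscle through 28 DPI. A gene was called when limma's adjusted p was under 0.05 and the difference exceeded 1 on the log2(TPM + 1) scale. The study set the same limits on fold changes of gene counts, and on this scale a low gene can change more than 2-fold without reaching 1. Against control muscle, 6, 7, 6 and 7 of the 10 genes were called higher at 3, 7, 14 and 28 DPI, beside 48.3%, 45.6%, 25% and 21.1% of all 11328 tested genes. Against contralateral muscle, 6, 6, 7 and 6 genes were called higher, beside 32.3%, 45.3%, 20.9% and 13.1% of all genes. The 10 genes had a median log2 fold change of 1.92, 2.84, 1.86 and 1.36 over contralateral muscle, where the median of all tested genes was 0.54, 0.91, 0.50 and 0.38. In bulk muscle, more cells of a type and more RNA per cell cannot be told apart.

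That shift of all genes came with a smaller share of myofibre transcripts. The summed TPM of 8 myofibre genes (Ckm and Acta1 among them) had a median of 184500 in control muscle, 42320 in injured muscle at 3 DPI, 70090 at 7 DPI and 149600 at 28 DPI. Since TPM sum to a fixed total, each gene was also compared after median-of-ratios size factors, a scaling that centred the typical gene. Under it the 6 genes kept their direction in both comparisons at every day, and only Fzd2 against contralateral muscle at 28 DPI slipped under the fold threshold (log2 fold change 0.97). Dkk2, Lrp5, Lrp6 and Axin2 changed direction with the scaling at several days, so no direction is drawn for them from TPM alone at those days. Size factors called 6, 6, 6 and 5 of the 10 genes higher over contralateral muscle at the 4 days, beside 20.7%, 18.7%, 10.5% and 7.2% of all genes, and 6 at each day over control, beside 24.5%, 21.9%, 15.8% and 11.5%. Among all genes called against contralateral muscle at 7 DPI, 95.8% were higher in TPM and 59.3% were higher with size factors, and these shares went from 84.5% to 60.4% at 3 DPI, from 99.2% to 73.5% at 14 DPI and from 98.4% to 82.7% at 28 DPI. Against control they went from 91.9%, 95%, 97.9% and 99.0% to 59.2%, 60.6%, 72.8% and 78.4%.

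**Figure D1:**
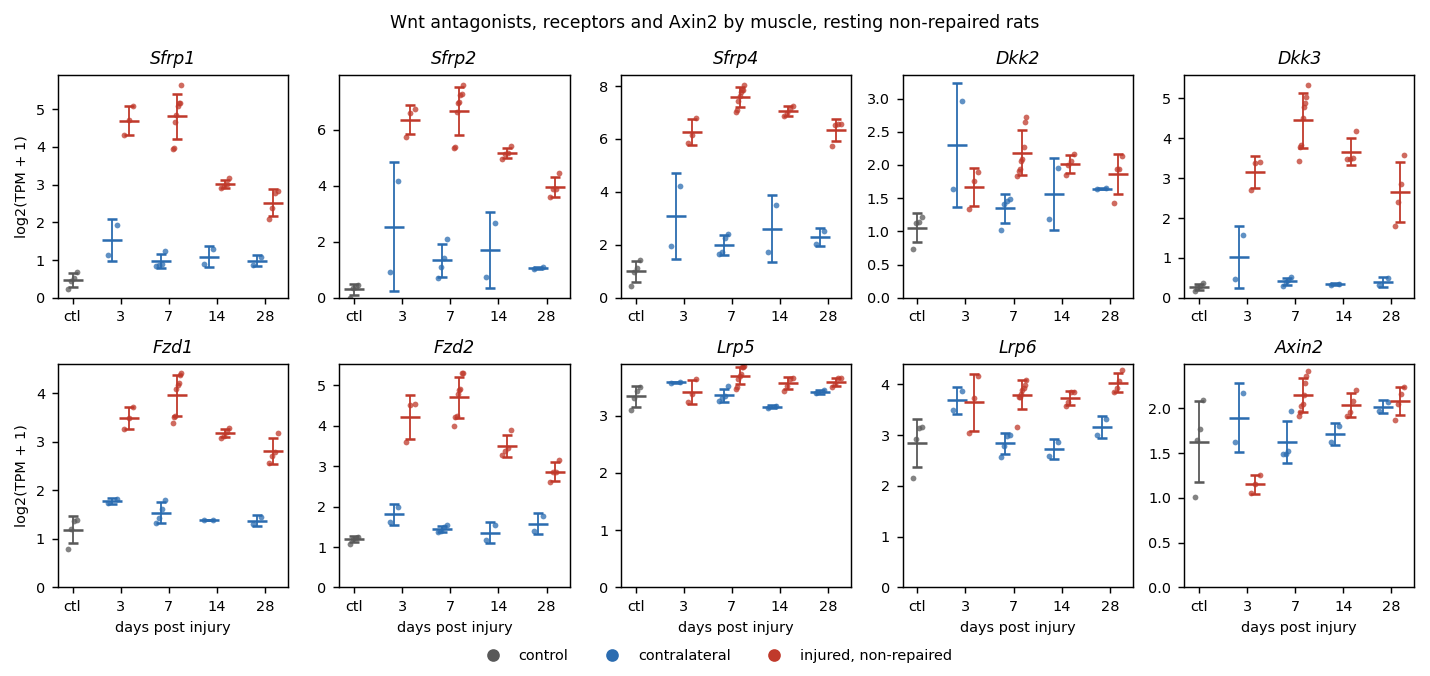
Level of each gene, as log2(TPM + 1), in every control muscle (grey), contralateral muscle (blue) and injured muscle (red) of resting, non-repaired rats, by days post injury. Points are muscles, and bars are the mean ± SD. Red points lie above all blue and grey points for Sfrp1, Sfrp2, Sfrp4, Dkk3, Fzd1 and Fzd2 at each day, whereas the groups lie close together for Lrp5, Lrp6, Dkk2 and Axin2.

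Of the 10 genes, Sfrp4 and Sfrp2 had the greatest differences on the log2(TPM + 1) scale over both reference groups at each of the 4 days in these rats. With size factors the order over contralateral muscle changed at 3 DPI, where Sfrp1 (2.68) passed Sfrp4 (2.64), and at 14 DPI, where Dkk3 (3.19) passed Sfrp2 (3.06). Sfrp4, which binds Wnt ligands and is found in fibrous connective tissue, measured 1.20, 0.99, 1.68 and 0.37 TPM in the 4 control muscles. In injured muscle it measured 110.1, 70.9 and 56.3 TPM at 3 DPI, and at 7 DPI the 8 muscles ran from 127.3 to 265 TPM with a median of 207. The 4 injured muscles at 14 DPI held 125.2, 114.8, 152.2 and 141.02 TPM, and at 28 DPI they held 52.2, 91.9, 94.8 and 94.0 TPM. Every injured muscle thus lay far above the control muscles. The log2 fold change of Sfrp4 over control was 5.27 ± 0.41 (SE), 6.58 ± 0.33, 6.06 ± 0.38 and 5.35 ± 0.38 at the 4 days (limma, largest adjusted p = 3.5e-21). Ordered by this fold change, Sfrp4 stood at place 119 of 11328 genes at 3 DPI and at places 21, 8 and 9 on the later days.

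Sfrp4 was already present at low level in the contralateral leg, most of all in 1 muscle at 3 DPI and 1 at 14 DPI. Contralateral muscle of these rats held 17.8 and 2.86 TPM of Sfrp4 at 3 DPI, 4.34, 2.28, 2.13 and 3.75 at 7 DPI, 10.3 and 2.28 at 14 DPI, and 3.12 and 4.78 at 28 DPI. Over contralateral muscle the log2 fold change of Sfrp4 was 3.18 ± 0.49, 5.58 ± 0.33, 4.46 ± 0.46 and 4.07 ± 0.46 (largest adjusted p = 1.6e-08).

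Sfrp2, the paralogue with a known role in fibroblasts and in the stem cell niche, measured 0.28, 0.30 and 0.38 TPM in 3 control muscles and was listed at 0 in the other one. Injured muscle held 94.6, 104.98 and 53.0 TPM at 3 DPI and between 39.5 and 191 TPM at 7 DPI, with a median of 124. The injured values of Sfrp2 were then 30.1, 34.3, 41.9 and 34.9 TPM at 14 DPI and 13.6, 11.2, 13.9 and 20.97 TPM at 28 DPI. The lowest injured muscle therefore stood well over the highest control muscle at every day. The log2 fold change of Sfrp2 over control was 6.05 ± 0.54, 6.37 ± 0.44, 4.87 ± 0.50 and 3.66 ± 0.50, and over contralateral muscle it was 3.81 ± 0.65, 5.34 ± 0.44, 3.47 ± 0.62 and 2.90 ± 0.62 (largest adjusted p = 8.3e-05).

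Sfrp1, a further Wnt-binding antagonist, had a lower mean level than Sfrp2 and Sfrp4 in injured muscle at each day, but not than Sfrp2 in control muscle. It measured 0.45, 0.35, 0.62 and 0.17 TPM in control muscle. Injured muscle held 25.2, 32.7 and 18.7 TPM of Sfrp1 at 3 DPI, 14.3 to 49.0 TPM at 7 DPI with a median of 30.3, 6.56, 6.73, 8.0 and 7.15 TPM at 14 DPI, and 3.23, 4.25, 6.13 and 5.90 TPM at 28 DPI. None of the injured muscles overlapped the control or contralateral muscles of their day. Over contralateral muscle the log2 fold change of Sfrp1 was 3.16 ± 0.39, 3.84 ± 0.26, 1.93 ± 0.37 and 1.54 ± 0.37 (largest adjusted p = 0.00042).

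Sfrp1 and Sfrp2 fell between 7 and 14 DPI, and the differences between the time courses of the 3 genes were not tested in this model. From 7 to 14 DPI, Sfrp1 fell by 1.79 and Sfrp2 fell by 1.5 on the log2 scale (adjusted p = 2.7e-08 and 0.0018), while the difference for Sfrp4 was -0.53 and did not pass (adjusted p = 0.14). Between 3 and 28 DPI, Sfrp1 fell by 2.17 and Sfrp2 fell by 2.40 (adjusted p = 9.8e-09 and 7.1e-05), whereas Sfrp4 differed by 0.09 (adjusted p = 0.86). From 3 to 7 DPI Sfrp4 rose by 1.32 (adjusted p = 0.0022), and the median of all genes was -0.06 over that interval and -0.40 from 7 to 14 DPI. With all libraries kept, neither the rise of Sfrp4 (0.96) nor the fall of Sfrp2 (-1.14, adjusted p = 0.109) was called. None of the 10 genes was called between 14 and 28 DPI. The shares of all genes called in either direction were 7.34% from 3 to 7 DPI, 6.82% from 7 to 14 DPI, 0.459% from 14 to 28 DPI and 28.8% from 3 to 28 DPI.

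The balance between Sfrp4 and Sfrp2 within a muscle does not depend on the scaling and moved over time. This ratio was chosen after the values had been seen. In non-repaired injured muscle the TPM ratio of Sfrp4 to Sfrp2 had a median of 1.06 (0.676 to 1.16) at 3 DPI and 1.76 (1.14 to 3.48) at 7 DPI. It then reached 3.84 (3.35 to 4.16) at 14 DPI and 5.64 (3.84 to 8.21) at 28 DPI. In contralateral muscle of these rats the medians were 2.15, 2.32, 2.67 and 3.68 at the 4 days. In grafted rats they were 0.974 at 3 DPI and 5.04 at 28 DPI. The ratio was 3.30 to 4.42 in 3 control muscles, and the other had no finite ratio. The injured ratios at 14 DPI thus lay within the control range. A rise by day was also seen in contralateral muscle, and whether injured muscle differed from it was not tested. The 4 non-repaired injured muscles at 28 DPI all lay above the 8 at 7 DPI, with a mean log2 ratio higher by 1.55 (two-sided exact permutation test, p = 0.00404, the smallest that 495 splits allow). In grafted injured muscle the same difference was 3.04 on the log2 scale, again without overlap between 4 and 8 muscles (two-sided exact permutation test, p = 0.00404).

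**Figure D2:**
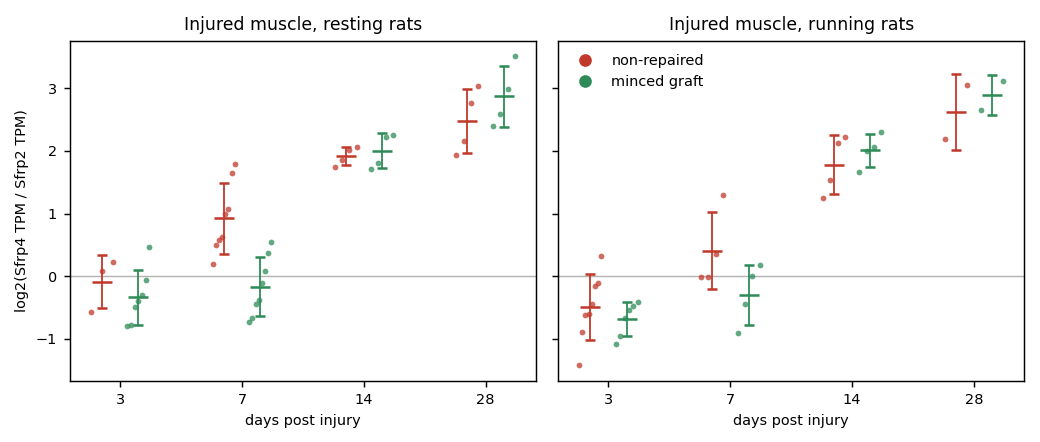
The log2 ratio of Sfrp4 to Sfrp2 TPM in each injured muscle of resting (left) and running (right) rats by days post injury, non-repaired in red and grafted in green, with bars for the mean ± SD. In resting rats the grafted muscles at 7 DPI have a mean of -0.17 and the non-repaired muscles a mean of 0.92, and both arms exceed 1.9 on average at 14 DPI.

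The Dickkopf genes went separate ways. Dkk3, a divergent member of the family that does not inhibit Wnt signalling through the coreceptors in the manner of its relatives, measured 0.20, 0.22, 0.30 and 0.13 TPM in control muscle. Injured muscle held 9.60, 9.39 and 5.51 TPM of Dkk3 at 3 DPI, 9.74 to 39.6 TPM at 7 DPI with a median of 24.1, 10.2, 10.4, 17.03 and 10.2 TPM at 14 DPI, and 4.30, 6.22, 2.5 and 10.98 TPM at 28 DPI. Contralateral values lay between 0.22 and 0.43 TPM, apart from 1.99 TPM in 1 muscle at 3 DPI. Dkk3 had a log2 fold change over contralateral muscle of 2.13 ± 0.44, 4.0 ± 0.29, 3.32 ± 0.42 and 2.26 ± 0.42 (largest adjusted p = 1.3e-05). It rose by a further 1.29 from 3 to 7 DPI (adjusted p = 0.00093), the only gene of the set besides Sfrp4 to be called over that interval, and with all libraries kept the value of Dkk3 was 0.95 and was not called.

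Dkk2, an antagonist that binds Lrp5 and Lrp6, stayed low. It measured 1.20, 1.18, 1.33 and 0.67 TPM in control muscle and 2.72, 2.40 and 1.53 TPM in injured muscle at 3 DPI, and the 8 injured muscles at 7 DPI ran from 2.56 to 5.63 TPM. Over control it was called at 7 DPI alone (log2 fold change 1.13 ± 0.24, adjusted p = 9.6e-06), and with size factors the value was 0.45 and was not called. Against contralateral muscle the log2 fold changes of Dkk2 were -0.64, 0.84, 0.45 and 0.22, none beyond the threshold, and with size factors they were 0.09, -0.01 and -0.12 from 7 DPI on. The contralateral muscles at 3 DPI held 6.80 and 2.12 TPM of Dkk2. With size factors the value of Dkk2 at 3 DPI was -1.03 and passed as lower, beside 13.5% of all genes called lower on that scale. The TPM value was 0.03 without the contralateral muscle that held 6.80 TPM of Dkk2 and -1.30 without the other.

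Both Frizzled receptors rose. Fzd2, a receptor linked to both β-catenin and non-canonical signalling, measured 1.33, 1.30, 1.39 and 1.12 TPM in control muscle. In injured muscle Fzd2 measured 22.02, 22.2 and 11.1 TPM at 3 DPI, 14.9 to 38.7 TPM at 7 DPI with a median of 27.5, 9.34, 9.87, 13.9 and 8.69 TPM at 14 DPI, and 6.25, 6.18, 5.06 and 7.91 TPM at 28 DPI. These values lay above every control and contralateral muscle of the arm. Over contralateral muscle the log2 fold change of Fzd2 was 2.41 ± 0.30, 3.25 ± 0.20, 2.14 ± 0.28 and 1.29 ± 0.28 (largest adjusted p = 0.00013). Fzd2 fell by 1.21 from 7 to 14 DPI (adjusted p = 4.1e-07), and the value was -0.83 with size factors and -0.87 with all libraries kept, both short of the fold threshold.

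Fzd1, its close relative, measured 1.62, 1.60, 1.29 and 0.74 TPM in control muscle. The injured muscles held 10.2, 12.1 and 8.65 TPM of Fzd1 at 3 DPI, 9.49 to 20.4 TPM at 7 DPI with a median of 16.5, and 4.93 to 8.77 TPM at 14 and 28 DPI. Fzd1 was thus raised in each injured muscle. Its log2 fold change over contralateral muscle was 1.71 ± 0.25, 2.42 ± 0.17, 1.79 ± 0.24 and 1.44 ± 0.24 (largest adjusted p = 1.2e-06).

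Both coreceptors were already expressed in control muscle. Lrp5 measured 9.83, 8.96, 7.55 and 10.3 TPM in control muscle, 8.39, 11.5 and 9.39 TPM in injured muscle at 3 DPI, and 10.1 to 13.5 TPM at 7 DPI. It was never called in TPM, with log2 fold changes over contralateral muscle from -0.16 to 0.41, under the median of all genes at each day. With size factors the same differences were -0.69, -0.66, -0.20 and -0.27 at the 4 days, so that the direction of Lrp5 turned with the scaling from 7 DPI on.

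Lrp6, its paralogue, measured 7.88, 7.86, 6.61 and 3.45 TPM in control muscle and 13.4, 14.2, 15.6 and 18.5 TPM in injured muscle at 28 DPI. The contralateral muscles at 28 DPI held 7.04 and 8.91 TPM of Lrp6, so that neither reference group overlapped the injured one. The log2 fold change at 28 DPI was 1.19 ± 0.19 over control (adjusted p = 4.7e-08, called) and 0.87 ± 0.23 over contralateral muscle (adjusted p = 0.0011, not called, and 0.45 with size factors). At 14 DPI Lrp6 was called against contralateral muscle (log2 fold change 1.01 ± 0.23, adjusted p = 9.9e-05). Neither call held with size factors, which gave 0.60 at 28 DPI over control and 0.43 at 14 DPI over contralateral muscle for Lrp6. The Lrp6 call over control was also lost without the right muscle of control rat 038 (0.96), and the call at 14 DPI was lost without 1 contralateral muscle (0.87) or either of 2 injured muscles (0.97 for both).

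Axin2, whose product scaffolds the complex that degrades β-catenin and whose transcription follows the pathway, was the one gene of the set that passed limma's test as lower than contralateral muscle in TPM in resting, non-repaired rats. At 3 DPI it measured 1.39, 1.22 and 1.07 TPM in injured muscle and 3.49 and 2.08 TPM in contralateral muscle, without overlap. Axin2 had a log2 fold change of -0.74 ± 0.19 (adjusted p = 0.00032), which passed the test but not the fold threshold, and with size factors or with a pseudocount of 0.1 TPM it was -1.08 and was called lower. The value was -0.47 (adjusted p = 0.069) without the contralateral muscle that held 3.49 TPM of Axin2. Control muscle held 2.12, 2.40, 3.25 and 1.02 TPM and overlapped the injured muscles. Over control the log2 fold change of Axin2 was -0.475 (adjusted p = 0.0043, not beyond the fold threshold). It was -0.32 (adjusted p = 0.060) without the control muscle that held 3.25 TPM. With size factors it was -1.20 and was called lower. Of all genes, 13.5% were called lower over contralateral muscle and 16.9% over control with size factors at 3 DPI.

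The same order was seen in each of the other arms at 3 DPI. Axin2 was lower by a log2 fold change of -0.92 in grafted muscle (adjusted p = 5.5e-07), -0.58 in running non-repaired muscle (adjusted p = 0.00087) and -0.80 in running grafted muscle (adjusted p = 1.3e-05). With size factors these 3 values were -1.32, -0.92 and -1.20, of which the first and the last were called lower. Injured and contralateral Axin2 values did not overlap in any of the 4 arms. How many of all genes share this was not counted, and each contralateral group at 3 DPI held 2 muscles. Dkk2 also passed the test as lower at 3 DPI in running non-repaired rats (log2 fold change -0.67, adjusted p = 0.040, groups overlapping). Across the arms the 24 injured muscles held 0.55 to 1.80 TPM of Axin2 and the 8 contralateral muscles held 1.99 to 3.49 TPM. Of all genes, 5.92%, 6.80%, 6.48% and 6.96% were called lower in TPM at 3 DPI in the non-repaired, grafted, running and running grafted arms. With size factors the share in the non-repaired arm was 13.5%, and those of the other arms are not given here.

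Axin2 was higher again at later days. The 8 injured muscles at 7 DPI held 2.78 to 4.36 TPM with a median of 3.29, all above the 3 muscles at 3 DPI, a difference of 0.99 on the log2 scale (adjusted p = 1.0e-08, just under the fold threshold). At 7, 14 and 28 DPI the log2 fold change of Axin2 over contralateral muscle was 0.53, 0.33 and 0.06, and with size factors these became -0.28, -0.17 and -0.31, so that no direction held on both scales after 3 DPI.

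Contralateral muscle itself differed from control at 3 DPI. Sfrp1, Sfrp2, Sfrp4 and Dkk2 were called higher there (4 of 10, beside 6.37% of all genes), and 0, 1 and 0 genes were called higher at 7, 14 and 28 DPI, beside 0.636%, 0.653% and 0.185%. The gene called at 14 DPI was Sfrp4. One of the 2 muscles at 3 DPI, from rat 010, held 17.04 TPM of Sfrp2, 17.8 TPM of Sfrp4 and 6.80 TPM of Dkk2, and the other, from rat 017, held 0.88, 2.86 and 2.12 TPM. The log2 fold change over control was 2.24 ± 0.62 for Sfrp2 (adjusted p = 0.0023), 2.09 ± 0.46 for Sfrp4 (adjusted p = 0.00023), 1.25 ± 0.33 for Dkk2 (adjusted p = 0.0017) and 1.06 ± 0.37 for Sfrp1 (adjusted p = 0.013). With size factors or with all libraries kept, Sfrp2 and Sfrp4 were called and Dkk2 (0.96 with size factors) and Sfrp1 (0.95) were not. No gene was called without the muscle of rat 010, 6 were called without that of rat 017, and Sfrp1 was lost without the right muscle of control rat 038. At 14 DPI the Sfrp4 call (log2 fold change 1.60) was lost without the contralateral muscle that held 10.3 TPM (0.71), and without any one of 3 control muscles (1.42 to 1.65).

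Markers of several cell types moved with these values. The summed TPM of 5 tendon genes (Scx and Tnmd among them) was 187 in the muscle of rat 010 and 85.4 in that of rat 017, and 31.1 to 52.0 in control muscle. The 8 fibroblast genes summed to 1312 and 579 TPM in the same 2 muscles and to 75.9 to 240.1 TPM in control muscle. All 5 tendon and all 8 fibroblast genes were detected in these groups, and 4 and 7 of them were called higher at 3 DPI. The 6 leukocyte genes summed to 172 and 60.6 TPM in the muscles of rats 010 and 017 and to 13 to 31.7 TPM in control muscle (5 called higher), and the 5 mural genes summed to 355 and 298 TPM and to 93.3 to 197 TPM (1 called higher). The myogenic (78.5 and 77.4 TPM), Schwann cell (25.2 and 17.5 TPM) and endothelial sums (108.6 and 101.2 TPM) also lay above every control muscle, whose highest sums were 49.6, 11.2 and 90.5 TPM, with 1, 1 and 0 genes called higher. Their part in the result was not tested.

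Unequal contralateral muscles were also found in the other arms. Over the 8 contralateral muscles at 3 DPI, Sfrp2 ran from 0.88 to 24.6 TPM with a median of 8.75, and over the 26 at later days it ran from 0.63 to 18.4 TPM with a median of 1.13. Sfrp4 had medians of 10.6 and 4.18 TPM over the same 8 and 26 muscles. A running grafted rat at 7 DPI held the later maximum of Sfrp2, 18.4 TPM, and the tendon genes of that muscle summed to 183 TPM.

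**Figure D3:**
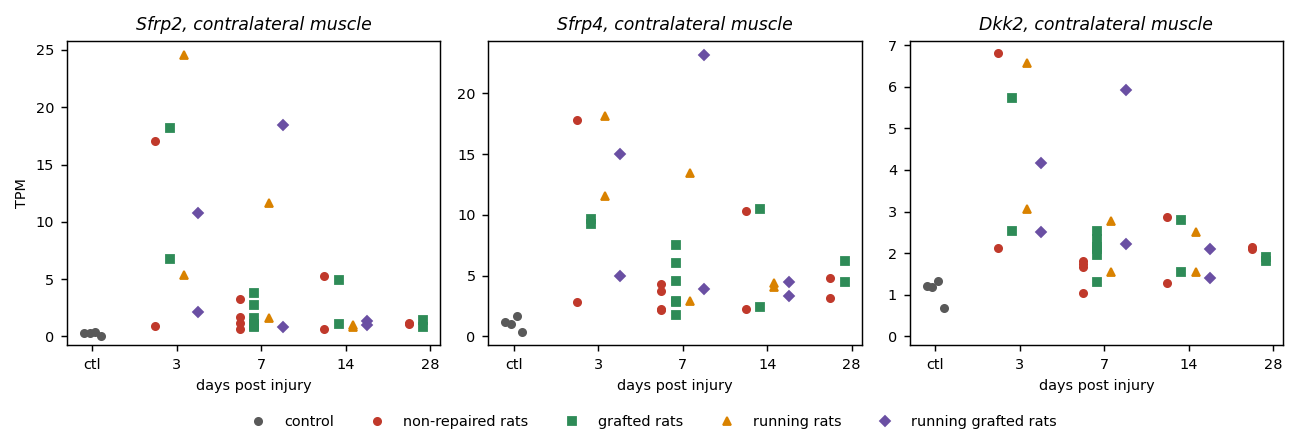
TPM of Sfrp2, Sfrp4 and Dkk2 in each contralateral muscle by days post injury, with colour and shape for the arm of the rat, and in the 4 control muscles (grey). The 2 muscles of an arm often lie far apart at 3 DPI, as with 17.04 and 0.88 TPM of Sfrp2 in non-repaired rats, and at 28 DPI all muscles lie under 2 TPM of Sfrp2.

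The 6 genes that rose in non-repaired muscle also rose in the other arms. In grafted rats, 6, 6, 7 and 6 genes were called higher in injured than in contralateral muscle at 3, 7, 14 and 28 DPI, beside 37.2%, 42.9%, 25.6% and 18.8% of all genes. In running non-repaired rats the counts were 6, 7 and 6 at 3, 7 and 14 DPI (33.7%, 39.9% and 25.7% of all genes), and in running grafted rats they were 6, 6 and 7 (37.9%, 40.0% and 23.6%). Sfrp1, Sfrp2, Sfrp4, Dkk3, Fzd1 and Fzd2 were called higher in all 18 comparisons of injured muscle, the 4 against control included. In none of these did the groups overlap. How many of all genes share this was not counted, and most contralateral groups held 2 muscles. The seventh gene was Lrp6 at 14 DPI in both grafted arms and Dkk2 at 7 DPI in the running arm. None of these calls held with size factors, which gave 0.39 and 0.50 for Lrp6 and 0.36 for Dkk2, and Fzd1 at 28 DPI in grafted rats then stood at 0.92, under the fold threshold. The arms share no animals, but the control and contralateral comparisons of non-repaired rats share their injured muscles.

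The reference level of Lrp5 was low in running non-repaired rats at 3 and 7 DPI, a feature chosen after its values were seen. In running non-repaired rats the contralateral muscles held a mean of 6.97 TPM of Lrp5 at 3 DPI and 5.99 TPM at 7 DPI (n = 2 each), where the other contralateral groups had means of 7.93 to 10.99 TPM. The log2 fold changes of Lrp5 in that arm were accordingly 0.63 at 3 DPI and 0.98 at 7 DPI, neither beyond the threshold, and 0.07 and 0.17 with size factors. The difference between arms was not tested.

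**Figure D4:**
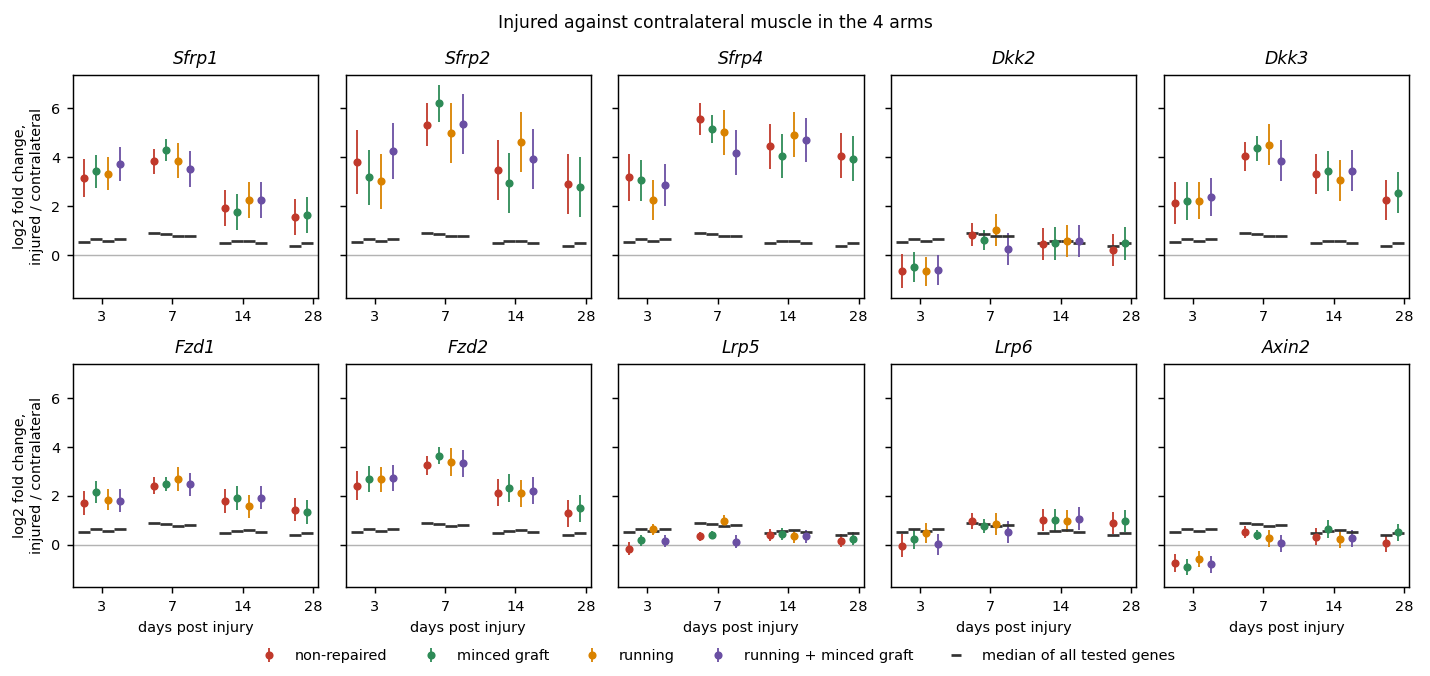
Log2 fold change (TPM + 1) of injured over contralateral muscle by days post injury in the 4 arms, with 95% intervals from limma; black dashes give the median of all tested genes in that comparison. Sfrp1, Sfrp2, Sfrp4, Dkk3, Fzd1 and Fzd2 lie above the dashes throughout, whereas Lrp5, Lrp6, Dkk2 and Axin2 lie closer to them or below.

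Whether a minced graft altered these genes was compared in injured muscle. No gene of the set was called between grafted and non-repaired muscle at any of the 4 days, and the shares of all genes called were 0.00883%, 0.0883%, 0.0265% and 0%. At an unadjusted p under 0.05, 1, 3, 0 and 0 of the 10 genes passed, beside 17.3%, 27%, 5.23% and 1.24% of all genes. At 7 DPI Sfrp2 measured 124 to 353 TPM in grafted muscle (median 189, 8 muscles) and 39.5 to 191 TPM in non-repaired muscle (median 124, 8 muscles), with overlap. Sfrp2 differed by a log2 fold change of 0.93 (95% interval 0.22 to 1.64, adjusted p = 0.082). Fzd2 was higher by 0.51 at 7 DPI (adjusted p = 0.039), which passed the test and not the fold threshold, and Sfrp1 differed by 0.61 (adjusted p = 0.056). In running rats the graft gave no call at any day (0%, 0%, 0.0177% and 0.0177% of all genes) and no unadjusted p under 0.05 for the set. Of all 11328 genes, 229, 783, 223 and 231 passed that limit at the 4 days.

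Relative to Sfrp2, Sfrp4 was lower in grafted muscle at 7 DPI. The ratio of Sfrp4 to Sfrp2 had a median of 0.849 (0.605 to 1.45) in the 8 grafted muscles and 1.76 (1.14 to 3.48) in the 8 non-repaired muscles, with little overlap. The mean log2 ratio differed by -1.09 (two-sided exact permutation test, p = 0.00109, adjusted over 8 comparisons 0.0087). The ratio was chosen with these values known, and the adjustment does not cover that choice, so the p-value does not establish a graft effect. The leukocyte genes summed to a median of 2329 TPM (1845 to 3978) in the grafted and 1488 TPM (552 to 2702) in the non-repaired muscles. The mural genes summed to 1048 (816 to 1380) and 804 (465.7 to 1104) TPM, the fibroblast genes to 11440 and 10630 TPM, and the endothelial genes to 242.5 and 228.5 TPM. Tendon genes (390.4 and 473.1 TPM) and myofibre genes (60080 and 70090 TPM) went the other way. Myogenic (398.8 and 397.1 TPM) and Schwann cell sums (30.55 and 32.25 TPM) were close. The part of these markers in the ratio was not tested. In running rats at 7 DPI the difference was -0.70 over 4 muscles each (two-sided exact permutation test, p = 0.171). The other 6 comparisons of the ratio gave differences from -0.25 to 0.40 and adjusted p of at least 0.60. Whether the difference at 7 DPI in resting rats exceeded those of the other days was not tested.

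Running was compared in the same way. No gene of the set was called between running and resting non-repaired muscle (0.0441%, 0%, 0.0177% and 0.0177% of all genes), with 1, 3, 0 and 0 genes at an unadjusted p under 0.05, beside 14.5%, 21.3%, 9.96% and 3.79% of all genes. At 7 DPI Sfrp2 measured 167, 92.9, 418 and 170.2 TPM in running muscle, a log2 fold change of 0.85 (95% interval -0.02 to 1.72, adjusted p = 0.24). In grafted muscle running gave no call (0% of all genes at each day) and 1 unadjusted p under 0.05. That was at 3 DPI, where 594 of all 11328 genes passed this limit. Over the 4 days the intervals of the 10 genes reached from -1.44 to 1.64 for the graft and from -1.26 to 1.72 for running, so that for Sfrp2 differences beyond 1 on the log2 scale lay within the intervals. The interaction of graft and running was called for none of the 10 genes (0.00883%, 0%, 0% and 0.00883% of all genes), and neither was that of injury and graft (0% at each day). At an unadjusted p under 0.05 these had 1 and 0 of 40 values. Of all 11328 genes, 477, 329, 257 and 79 passed this limit for graft and running at the 4 days. For injury and graft 237, 1308, 100 and 63 passed.

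**Figure D5:**
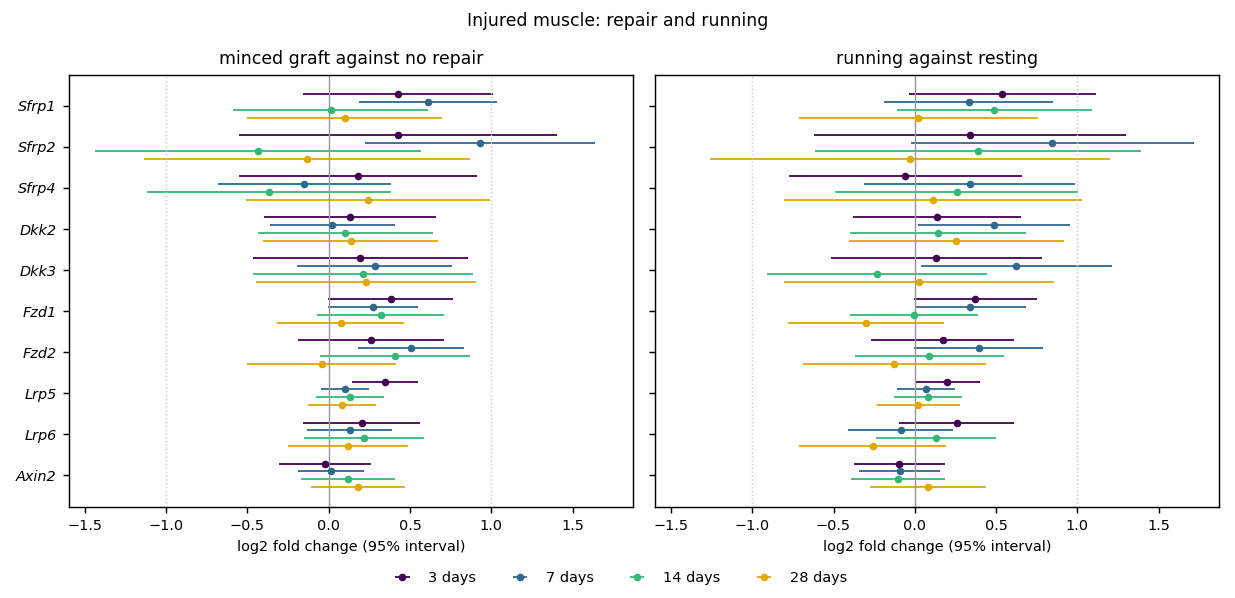
Log2 fold change (TPM + 1) of each gene in injured muscle, grafted against non-repaired (left) and running against resting (right), with limma's 95% intervals, coloured by days post injury. Dotted lines mark differences of 1 and -1. Sfrp2 has the widest intervals, and at 7 DPI its difference is 0.93 for the graft and 0.85 for running.

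Each of the 6 rising genes had partners of very similar pattern. Over the 31 group means, the genes most alike to Fzd2 by Pearson's r were Sept5 (0.997), Cdh11 and Robo1 (both 0.996). Those most alike to Dkk3 were Cpxm1, C1qtnf5 and Ssc5d (all 0.994), to Fzd1 Fat1, Scarf2 and Mrc2 (all 0.994), and to Sfrp1 Pxylp1, Pdia5 and Itga5 (all 0.993). Sfrp4 was closest to Ccdc80, Evc and Islr (all 0.990), and Sfrp2 to Rarres2 (0.988), MGC94199 and Kdelc1 (both 0.987). The other genes had looser partners. Dkk2 was closest to Kera (0.908), which encodes a proteoglycan of tendon and cornea, Efhd1 (0.864) and Fbxo21 (0.862). Lrp6 was closest to Ddr2 (0.963), Pik3r1 and Gsk3b (both 0.961), Lrp5 to Ppp1r16b (0.913), Ak3 (0.888) and Rai1 (0.882), and Axin2 to Gcdh (0.910) and Entpd4 (0.888). Within the set, Sfrp1 and Sfrp2 had r = 0.976, and Sfrp2 and Axin2 had r = -0.056. These are descriptions over groups that share the injury, and no test was made.

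Stromal and inflammatory markers moved with the same comparisons. Over contralateral muscle at 7 DPI, 8 of 8 fibroblast genes (Pdgfra and Col1a1 among them), 5 of 5 tendon genes and 6 of 6 leukocyte genes were called higher, with median log2 fold changes of 3.26, 2.88 and 3.20. The fibroblast genes summed to 5454 to 15340 TPM in injured and 270.2 to 486 TPM in contralateral muscle, and all of them were detected in both groups. The leukocyte genes summed to 552 to 2702 and 43.2 to 56.6 TPM. Endothelial and mural genes were called higher for 5 of 6 and 4 of 5 genes, and for 0 of 6 and 2 of 5 with size factors. Myofibre genes fell for 6 of 8, myogenic genes were higher for 3 of 4, and Schwann cell genes for 1 of 3. At 3 DPI the leukocyte genes summed to 4033 to 5423 TPM in injured muscle. Their part in the changes of the 10 genes was not tested.

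Of the rest of the pathway, the genes named are those called at 7 DPI against contralateral muscle with the greatest change in each list. The counts of each list stand beside 32.3%, 45.3%, 20.9% and 13.1% of all genes called higher over contralateral muscle at the 4 days, and those of the secreted, receptor and cytoplasmic lists were near or below these shares, as were those of the nuclear list at 3, 7 and 28 DPI. At 3 DPI, 5.92% of all genes were called lower. Among 8 tested genes of the secreted list (secreted regulators and Porcn, an enzyme that is not secreted), 2, 3, 0 and 0 were called higher at 3, 7, 14 and 28 DPI. They were, at 7 DPI, the agonist Rspo1 (1.28), the Wnt acyltransferase Porcn (1.25) and the antagonist Frzb (1.09 on the log2 scale), and none of the 3 was called with size factors. Frzb remained low, with a mean of 1.77 ± 1.22 TPM (SD, n = 8) in injured and 0.21 ± 0.09 TPM (n = 4) in contralateral muscle.

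Of 14 other receptors tested, 4, 6, 3 and 1 were called higher at the 4 days. Ptk7, a coreceptor of planar cell polarity signalling, rose from 0.39 ± 0.20 (SD, n = 4) to 20.7 ± 8.5 TPM (n = 8) at 7 DPI, a log2 fold change of 3.87 (adjusted p = 4.1e-28). The Wnt5a receptor Ror2 rose from 0.12 to 6.08 TPM (log2 fold change 2.59), Fzd6 from 1.86 to 9.16 TPM (1.82) and Ror1 from 0.17 to 1.67 TPM (1.18). Ptk7, Ror2 and Fzd6 were called with size factors as well and Ror1 was not, and 3 of 13 receptors (Fzd4, Fzd9 and Ryk) were then called lower, beside 12.9% of all genes.

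Inside the cell, 1, 7, 1 and 1 of 19 tested cytoplasmic components were called higher, and 1 was called lower at 3 DPI. Dact3 (2.52), Dvl2 (1.32), Ctnnbip1 (1.27) and Csnk1d (1.11) led at 7 DPI on the log2 scale, and with size factors Dact3 alone of these was called, while Tnks2 was called lower (-1.45). Nuclear factors were called higher for 3, 5, 4 and 1 of 10, with 2 lower at 3 DPI. The corepressor Tle3 (2.51), Pygo2 (2.04), Tcf7l2 (1.92) and Tcf7l1 (1.49) led them at 7 DPI, and all but Tcf7l1 were called with size factors too, while the corepressor Tle1 was then called lower (-1.52).

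Genes known as Wnt targets were called higher for 4, 6, 3 and 2 of 7 tested. With size factors the counts were 4, 3, 1 and 2, beside 20.7%, 18.7%, 10.5% and 7.2% of all genes. Cd44 measured 39.8 ± 13.8 TPM (SD, n = 8) in injured and 2.48 ± 0.14 TPM (n = 4) in contralateral muscle at 7 DPI, a log2 fold change of 3.48 (adjusted p = 2.4e-27). Myc followed with 2.43, Ccnd1 with 2.07 and Fosl1 with 1.47 on that scale, and Fosl1 was not called with size factors. These genes are known to answer to many signals besides Wnt. Polarity genes were called higher for 1, 3, 1 and 1 of 4 and lower for 1 of 4 at 3 DPI, and Daam1 (2.04), Prickle1 (1.25) and Prickle2 (1.19) were those at 7 DPI, of which Daam1 was called with size factors, while Celsr2 was then called lower (-1.01).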

How the data were processed

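Per the labels and the study's methods, the authors sequenced TruSeq libraries of total RNA as paired-end reads on an Illumina HiSeq and quantified them with kallisto against rat genome build 6.0. The deposited table holds TPM (the share of each gene symbol's transcripts, scaled to a fixed total) for 138 libraries. TPM carry no read count, and the labels state only an average depth over all libraries, so the precision from counting could not be given for a single value. The kallisto version was not given in the sources used here.

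Of 129 libraries mapped by their labels, 13 with fewer than 7000 symbols above 1 TPM were dropped (901 to 5712 symbols, against 7866 to 10948 in the rest), which removed 2 contralateral muscles of non-repaired rats at 7 DPI. Libraries of one muscle were averaged, giving 114 muscles. A further 9 libraries whose labels conflict entered no comparison. Genes with a group mean above 1 TPM in some group (11328, all 10 members included) were fitted as log2(TPM + 1) in one group-means model with limma 3.58.1 (R 4.3.3), with an intensity trend and Benjamini-Hochberg adjustment over all tested genes. Both legs of a rat came from one animal. The residuals of 34 such pairs had a mean correlation of 0.0944 (15 above 0.1, lowest -0.0679), and the rat as a random block was an alternative (consensus correlation 0.026). Nothing in the labels names separate surgeries or batches. The other alternatives were a pseudocount of 0.1, no filter on low values, median-of-ratios size factors on TPM, all libraries kept, each library as its own sample, resting rats alone, control muscles averaged per rat (the 4 control muscles are not 4 animals), and single muscles left out. Single values were compared by exact permutation in scipy 1.17.1. Members, pathway lists and marker lists were chosen with earlier results of these data known. The Sfrp4 to Sfrp2 ratio was added after the values had been seen. The genes named from the pathway lists are up to 4 per list, those called at 7 DPI against contralateral muscle with the largest change, and the 3 genes most alike to each member by Pearson's r over group means, of which 1 is not reported here. Pathway genes named as lower with size factors (Fzd4, Fzd9, Ryk, Tnks2, Tle1 and Celsr2) were chosen after their values were seen.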

Additional observations from a re-analysis of the deposited data

Results flagged for a closer look

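Single muscles stood far from the rest of their group in 11 of 160 gene and group pairs of 4 to 10 muscles by Dixon's criterion, and chance alone flags about 1 in 20. The highest muscle stood apart for Axin2 in contralateral muscle of non-repaired rats at 7 DPI (2.93 TPM, next 1.88), for Sfrp1 in that group (1.38 TPM, next 0.87), for Dkk2 in grafted injured muscle at 7 DPI (8.11 TPM, next 4.39), for Fzd2 in running injured muscle at 7 DPI (53.3 TPM, next 30.9) and for Dkk3 in non-repaired injured muscle at 14 DPI (17.03 TPM, next 10.4). One grafted injured muscle at 14 DPI was high in both Dkk3 (25.1 TPM, next 11.6) and Sfrp1 (11.2 TPM, next 6.36). The lowest muscle stood apart for Lrp6 at 7 DPI in grafted (8.88 TPM, next 13.8) and in non-repaired injured muscle (7.96 TPM, next 12.5), for Sfrp4 in non-repaired injured muscle at 28 DPI (52.2 TPM, next 91.9), and for Axin2 in running grafted injured muscle at 3 DPI (0.63 TPM, next 1.06).

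The 9 libraries with conflicting labels were compared with the highest control muscle. All 9 exceeded it for Sfrp1 (0.62 TPM), Sfrp2 (0.38 TPM) and Fzd2 (1.39 TPM), 8 of 9 for Dkk3 (0.30 TPM) and Fzd1 (1.62 TPM), and 7 of 9 for Sfrp4 (1.68 TPM). Every contralateral muscle also exceeded it for Sfrp1 (lowest 0.81 TPM), Sfrp2 (lowest 0.63 TPM) and Sfrp4 (lowest 1.79 TPM). Passing the control level therefore does not mark a library as injured.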

How the results depend on the processing

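For the 6 genes Sfrp1, Sfrp2, Sfrp4, Dkk3, Fzd1 and Fzd2, direction over control and contralateral muscle was kept under each alternative run. Size factors on TPM reversed Dkk2, Lrp5, Lrp6 and Axin2, which are named here with their log2 values. Over control these were Dkk2 -0.074, Lrp5 -0.97 and Lrp6 -0.22 at 3 DPI, Axin2 -0.26, Lrp5 -0.64 and Lrp6 -0.017 at 7 DPI, Axin2 -0.063 and Lrp5 -0.42 at 14 DPI, and Axin2 -0.009 and Lrp5 -0.38 at 28 DPI. Over contralateral muscle they were Axin2 -0.28, Lrp5 -0.66 and Lrp6 -0.02 at 7 DPI, Axin2 -0.17, Dkk2 -0.009 and Lrp5 -0.20 at 14 DPI, and Axin2 -0.31, Dkk2 -0.12 and Lrp5 -0.27 at 28 DPI. In grafted rats they were Axin2 -0.31, Dkk2 -0.086, Lrp5 -0.48 and Lrp6 -0.094 at 7 DPI and Lrp5 -0.22 at 14 DPI, and in running rats Lrp6 -0.11 at 3 DPI and Lrp5 -0.32 at 14 DPI, or with a graft Lrp6 -0.27 at 7 DPI and Lrp5 -0.26 at 14 DPI. With all libraries kept, Lrp5 from 3 to 7 DPI reversed to -0.04, and Sfrp4 (0.96) and Dkk3 (0.95) over that interval and Fzd2 (-0.87) and Sfrp2 (-1.14, adjusted p = 0.109 by limma) from 7 to 14 DPI were not called. With a pseudocount of 0.1, Axin2 at 3 DPI over contralateral muscle (-1.08) was called lower. Fzd2 from 3 to 28 DPI was -0.92 with size factors and not called. The cause was not tested.

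Counts of called members (of 10, either direction) moved by at most 1.5 times for injured muscle. With single muscles left out they were 6 to 7, 7 to 8, 6 to 7 and 6 to 7 over control, and 6 to 8, 6 to 7, 6 to 7 and 6 to 7 over contralateral muscle at the 4 days. The other alternatives reached 6 to 8 over control, and over contralateral muscle 9 at 7 DPI with all libraries and 5 at 28 DPI with size factors. For contralateral against control muscle they became 2 at 3 DPI with size factors or all libraries, 3, 2 and 1 at 7 DPI with a pseudocount of 0.1, size factors or all libraries, 3, 2, 0 and 0 at 14 DPI with these and with control muscles averaged per rat, and 1 at 28 DPI with the pseudocount of 0.1. Over all genes, calls against contralateral muscle became 8144 with all libraries and 3529 with size factors at 7 DPI (5365 as reported), 3850 at 14 DPI (2385) and 2800 at 28 DPI (1508) with the pseudocount of 0.1, and 976 at 28 DPI with size factors. Against control the pseudocount gave 4480 at 14 DPI (2889) and 4258 at 28 DPI (2410). Contralateral against control moved from 728 calls to between 179 and 2182 at 3 DPI, from 91 to between 56 and 4155 at 7 DPI, from 81 to between 3 and 484 at 14 DPI, and from 21 to as few as 4, or more than 10 times as many with the pseudocount, at 28 DPI. Calls for the graft or running went from at most 10 to at most 124, reached for the graft at 7 DPI with all libraries. Leaving out single muscles gave 0 to 6 members at 3 DPI and 0 to 1 at 14 DPI for contralateral against control muscle. Keeping all libraries gave 1 gene, Sfrp2 (1.29), for the graft at 7 DPI. The replicate block (the rat) gave the same counts of members, 6, 7, 6 and 7 over control and 6, 6, 7 and 6 over contralateral muscle, and changed no other call of this set. The Sfrp4 to Sfrp2 contrasts ranged from 1.37 to 1.73 and from 2.83 to 3.20 between 28 and 7 DPI, and from -1.19 to -0.97 for the graft, with single muscles left out.

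Groups of 2 contralateral muscles limit all comparisons with them, and p-values measure the spread between muscles. The running groups at 28 DPI had no contralateral muscle here.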

Other observations

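Of the 9 libraries with conflicting labels, 8 come from 4 running rats at 28 DPI in which the leg named in the title and the injury label conflict. The 4 titled as injured but labelled as without VML held 2.13, 1.67, 3.96 and 1.44 TPM of Sfrp4, and the 4 titled as control but labelled with VML held 70.5, 70.4, 57.9 and 96.1 TPM. No value lay between 3.96 and 57.9 TPM in these 8. The ninth, from a contralateral muscle whose labelled day differs from that of the same rat's other libraries, held 18.8 TPM of Sfrp4 and 7.44 TPM of Sfrp2.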
